A study of Mus musculus with 17 samples.

Results

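The hippocampus of mice fed fungal oil was compared with the hippocampus of mice fed fish oil, with 1 RNA a side, each hybridised to chip A and chip B of a mouse oligonucleotide array set. These are 4 of the 17 arrays of the study, chosen by their titles, tissue and diet. All mice were male Rj:NMRI animals, an outbred stock. They received a purified AIN93G-based diet in which medium chain triacylglycerol oil had been partly exchanged for 1.1% fungal oil, which supplied 0.5% by weight of arachidonate, or for 1.9% fish oil, which supplied 0.5% by weight of docosahexaenoate. Per the labels, 10 mice were fed each diet and housed 10 to a cage, they were killed in the morning of day 57 or 58 without a full fast, and 5 of them were drawn at random for the hippocampus. Cage and day of death cannot be told apart from diet, and the labels used here do not say how the RNA of the mice was combined. A hippocampus RNA of mice on the control diet (chips A and B) and one of mice fed both oils (chip B) are quoted only to place values, and no ratio uses them except through the brightness filter.

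Arachidonate and docosahexaenoate are the main long-chain polyunsaturated fatty acids of brain phospholipids. Arachidonate, an n-6 fatty acid, is released by phospholipases and turned into prostaglandins and other eicosanoids, while docosahexaenoate, an n-3 fatty acid, is concentrated in synaptic and retinal membranes. The hippocampus, a cortical structure needed for forming memories, lies along the floor of the lateral ventricle. The choroid plexus, which secretes cerebrospinal fluid, and the meninges, the connective tissue covers of the brain, therefore adjoin it.

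With 1 RNA a side there is no replicate check, so no p-value is given for any gene or list. Intensities are background-subtracted and can be negative, and values under a floor of 14.9, set at 0.1 of the trimmed mean intensity, were raised to it before a ratio was taken. Probe sets were kept where the mean over the hippocampus arrays of a chip reached the chip's median, which left 6538 of 13069 probe sets and 3525 named genes, each gene represented by its brightest probe set. A gene was counted as different at 2-fold or more. The arrays were close in overall signal, with trimmed means of 148.4 to 149.4, and 15.2% to 17.7% of values were negative on chip A and 29.8% to 32.4% on chip B. As a measure of RNA breakdown on chip A, the 3-prime probe set of Gapdh read 0.906 times the 5-prime one with fungal oil and 0.91 times with fish oil, and that of actin 1.549 and 1.55 times. The 3-prime probe set for 18S ribosomal RNA, a species that is not meant to be labelled from poly(A) tails, read 203 with fungal oil, against 810 with fish oil, and 921 with the control diet. The part of this 18S signal in the results was not tested. On chip B these checks could not be made between the oils, because the fish-oil array has no values for these probe sets.

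The 2 hippocampal profiles were close to each other. Over the kept probe sets, 64.8% differed by no more than 1.2-fold. Fungal oil was at least 2-fold above fish oil for 178 probe sets (2.72%) and at least 2-fold below for 131 (2.00%). The calls lay mostly among dim probe sets. Of the 309, 33 were among the 3268 probe sets in the upper range of brightness (75th percentile and over), 20 higher and 13 lower, and 0 were among the 655 in the top 5%. With no replicate in hippocampus, the nearest measure of spread is a pair of liver RNAs of the control diet, which differed by 2-fold or more at 687 of 6537 probe sets (10.5%), against 826 (12.6%) between fungal and fish oil in liver. The SD of the log2 ratio over probe sets was 0.34 in hippocampus and 0.50 in the liver control pair on chip A, and 0.63 and 0.81 on chip B. The hippocampal diets thus differed less than these liver RNAs of 1 diet at every brightness plotted, although liver and hippocampus need not vary alike. The RNA also differed, as the 3-prime to 5-prime ratio of Gapdh on chip A was 2.071 and 1.906 in the liver controls. In hippocampus it was 0.906 with fungal oil and 0.91 with fish oil.

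**Figure D1:**
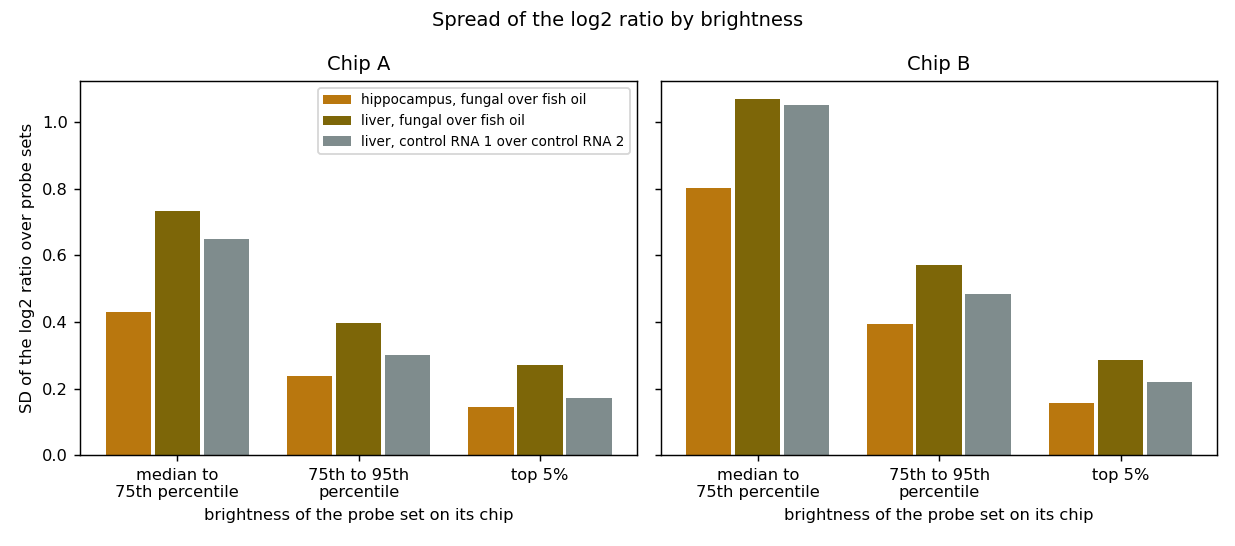
SD of the log2 ratio over probe sets (vertical axis) by brightness of the probe set on its chip (horizontal axis), for chip A (left) and chip B (right), with bars for fungal over fish oil in hippocampus, fungal over fish oil in liver and the pair of liver control RNAs. The hippocampus bars are the lowest of each set, and all bars shrink with brightness, to 0.144 on chip A and 0.157 on chip B for the brightest hippocampal probe sets.

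Chip B carried most of the differences. It had 248 of 3273 probe sets past 2-fold (7.58%), against 61 of 3265 on chip A (1.87%), and in 68 of the chip B calls 1 side was at or under the floor, against 0 on chip A. No gene symbol, or several, belonged to 164 of the 309 called probe sets, so these are counted and not named. Among named genes, 66 of 3525 were at least 2-fold higher with fungal oil (1.87%) and 57 at least 2-fold lower (1.62%). At 1.5-fold the numbers were 192 higher (5.45%) and 165 lower (4.68%), and the median log2 ratio of all genes was -0.01, with 46.7% of genes above 0.

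A second probe set of the same gene is the only repeat that the hippocampal arrays hold, and it is a repeat of the array signal and not of the animals. For 519 genes with several kept probe sets, the ratios of the brighter and the next probe set correlated weakly across genes, with r = 0.08 and a Spearman rho of 0.17, where genes are not independent replicates. The brighter probe set was past 2-fold for 8 of these genes. The next probe set had the same sign for 3 of them, and was past 2-fold the same way for 1. That gene was Igfbp1, named by the rule below. Where another kept probe set of a gene described below has the opposite sign, its values are given too.

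**Figure D2:**
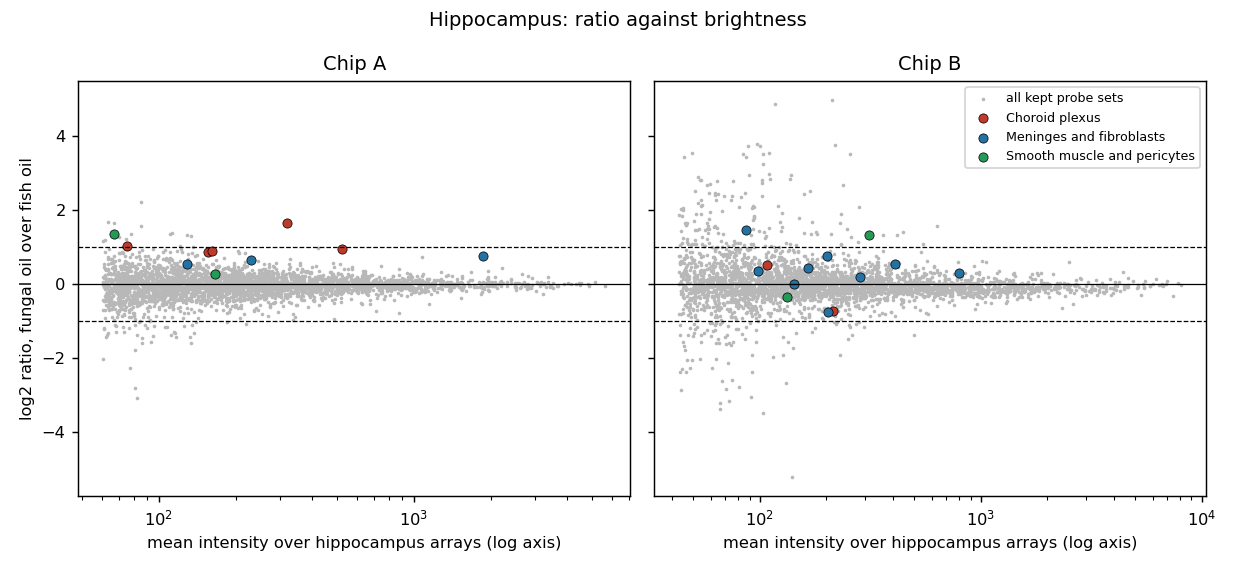
Log2 ratio of fungal over fish oil (vertical axis) against mean intensity over the hippocampus arrays (horizontal axis, log scale) for the kept probe sets of chip A (left) and chip B (right), 1 grey point each, with genes of 3 non-neural lists in colour and dashed lines at 2-fold. The grey cloud narrows with brightness, while Ttr (log2 ratio 1.64), Ptgds (0.76) and Acta2 (1.32) lie above it at their brightness.

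Genes known from the choroid plexus were higher with fungal oil. The gene lists and their members, here and below, were chosen with earlier results of these data known. Of 11 list members on the arrays, 7 were kept, 6 of them above 0 and 1 below, with a median log2 ratio of 0.89, against -0.01 over all genes. Their summed intensity was 2147 with fungal oil, 1234 with fish oil and 1305 with the control diet. Ttr, which encodes transthyretin, the carrier of thyroid hormone and retinol-binding protein that the choroid plexus secretes in bulk, read 490 with fungal oil, 157 with fish oil and 304 with the control diet, a 3.12-fold difference between the oils. The fish-oil array was thus the low one for Ttr, with the control between the oils.

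Igf2, the gene of insulin-like growth factor 2, read 805 with fungal oil, 415 with fish oil and 353 with the control diet. Igfbp2, whose product binds insulin-like growth factors, read 222 with fungal oil, 121 with fish oil and 124 with the control diet. Kl, the gene of Klotho, a co-receptor for a fibroblast growth factor, read 221 with fungal oil, 119 with fish oil and 145 with the control diet. For these 3 genes the fungal-oil array was the high one, and fish oil and control lay close together. Lbp, which encodes the lipopolysaccharide-binding protein, read 105 and 51 with fungal and fish oil. Htr2c, the serotonin receptor 2C, dense on choroid epithelium and also present on neurons, read 136 and 95. Cdh3, a cadherin of epithelia, went the other way, with 168 and 276. Past 2-fold were 2 of the 7, Ttr and Lbp, both higher. Cdh3 and Htr2c are the chip B members, and the median over that chip alone was -0.10. The members that were not kept (Folr1, Aqp1, Calml4 and Slc4a5) had at most 52 on the fungal-oil array and at most 4 on the fish-oil array. Folr1, the folate receptor, and Aqp1, a water channel, are defining choroid genes, and both were below 0 on the fish-oil array (-23 and -6) and at 39 and 19 on the fungal-oil array. Their means over the hippocampus arrays, -7.0 and 3.8, were under the floor of 14.9, so these readings carry little weight. All 4 members that were not kept read higher with fungal oil, as did 57.4% of all 2612 genes that were not kept. In bulk tissue, fewer cells of a type and less RNA per cell cannot be told apart, and how much choroid plexus each dissection held was not measured.

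**Figure D3:**
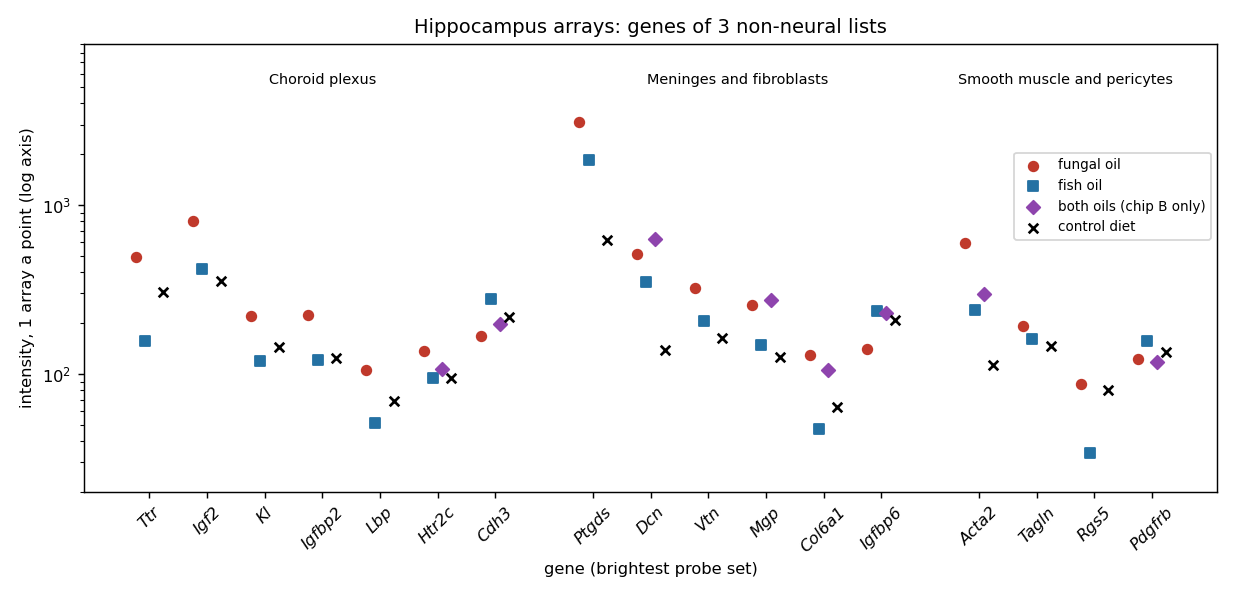
Intensity on single hippocampus arrays (vertical axis, log scale) for genes of the choroid plexus, meninges and fibroblast, and smooth muscle lists (horizontal axis), with 1 point per array for fungal oil, fish oil, both oils (chip B genes only) and the control diet. The fungal-oil point lies above the fish-oil point for 14 of the 17 genes drawn, and below it for Cdh3, Igfbp6 and Pdgfrb.

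Genes of the meninges and of fibroblasts were also higher with fungal oil, 11 of 12 kept members above 0 with a median log2 ratio of 0.49. Ptgds was the brightest of them. It encodes the lipocalin-type prostaglandin D synthase, which makes prostaglandin D2 from an arachidonate product and is abundant in meninges, choroid plexus and oligodendrocytes. It read 3118 with fungal oil, 1843 with fish oil and 624 with the control diet, so both oil arrays lay far above the control and the fungal-oil array was the highest. The summed intensity of the list followed the same order, with 6296, 4314 and 2741.

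Dcn, which encodes the matrix proteoglycan decorin, read 511 with fungal oil, 351 with fish oil, 631 with both oils and 138 with the control diet. Mgp, the gene of matrix Gla protein, an inhibitor of calcification, read 254, 149, 275 and 125 in the same order. On these 2 genes the array of mice fed both oils was the highest, and the fish-oil array lay between it and the control. Vtn, the gene of the adhesion protein vitronectin, read 324 with fungal oil and 205 with fish oil. Col6a1, a collagen VI chain, read 130 and 47, and was the list's only member past 2-fold. Igfbp6 was the exception, with 140 and 236. Of the 9 members that were not kept, 9 read higher on the fungal-oil array, at intensities of -92 to 142. Over all 2612 genes that were not kept, that share was 57.4%.

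Smooth muscle and pericyte genes had 4 kept members, of 11 on the arrays, and a median log2 ratio of 0.79 that rested on a pair of them. Acta2, smooth muscle actin of the vessel wall, read 598 with fungal oil, 240 with fish oil, 298 with both oils and 112 with the control diet. The fungal-oil array stood apart for this gene. Rgs5, a pericyte regulator of G-protein signalling, read 87 and 34 with fungal and fish oil on its brighter probe set, but 54 and 58 on its other. Tagln, a second smooth muscle gene, read 193 and 160, and Pdgfrb, the pericyte receptor for platelet-derived growth factor B, 123 and 157. Of the 7 members that were not kept, 3 read higher with fungal oil, 3 lower and 1 the same. They included Myh11, the smooth muscle myosin (-21 and -41), Cnn1 (44 and 50) and Mylk (54 and 39). Without the brightness filter the median over all 11 members was 0.

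Endothelial genes had a median log2 ratio of 0.22, with 7 of 8 members above 0. On chip B alone, with 4 of them, the median was 0.72. Slc2a1, the glucose transporter of the blood-brain barrier, read 308 with fungal oil and 263 with fish oil, and Itm2a 218 and 190. Tie1, an endothelial receptor tyrosine kinase, read 111 with fungal oil and -20 with fish oil on 1 dim probe set, 7.47-fold against the floor. Haemoglobin genes were higher with fungal oil. Hba-a1 read 3262 and 2164, with a log2 ratio of 0.59, and 0.40 on its second probe set, and Hbb-b2 read 1341 and 1083. Alas2, the erythroid enzyme of haem synthesis, read 195 and 157. Cd3e, a T cell gene, and Slc4a1, the red cell anion exchanger, were lower, with 51 and 131 and with 178 and 294, so the blood list as a whole had no single direction.

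Astrocyte genes were mostly a little higher with fungal oil. Of 15 members, 12 were above 0 and 2 below, and the median log2 ratio was 0.19. Within 1.2-fold were 11 of them, and 0 were past 1.5-fold. Over all kept probe sets 64.8% were within 1.2-fold, and 75.2% of those from the 75th to the 95th percentile of brightness. Vim, the intermediate filament vimentin, which meningeal and endothelial cells express too, read 529 with fungal oil and 388 with fish oil. Sparcl1, a secreted astrocyte protein that promotes synapses, read 2533 and 1880. Clu, the gene of clusterin, read 3122 and 2798, and Aqp4, the water channel of astrocyte endfeet, 312 and 263 on one probe set and 258 and 264 on the other. Gfap differed by less, with 468 and 434. S100b was the lowest of the list, with 304 and 354.

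The genes that define the tissue differed little, as most probe sets did. Of the 12 kept genes of hippocampal principal neurons, 9 were within 1.2-fold and 0 were past 1.5-fold. Over all kept probe sets, 64.8% were within 1.2-fold. The median log2 ratio of the neuronal genes was -0.10, with 4 above 0 and 8 below. Their summed intensity was 10203 with fungal oil, 11570 with fish oil and 12205 with the control diet. Neurod6, a transcription factor of pyramidal neurons, read 285 with fungal oil and 281 with fish oil, and Zbtb20, which specifies CA1 neurons, 462 and 440. Neurod2 was lower at 689 and 931, as was Chgb, a protein of secretory granules, at 2506 and 3158. The probe set for Camk2a, an abundant kinase of these neurons, was not kept, at 41 and 6. Markers of cerebellum, thalamus and neocortex layers had medians of -0.15, -0.08 and -0.04, over 4, 8 and 3 genes. The 4 kept striatal genes had a median of 0.25, led by Penk, the enkephalin precursor, which read 435 and 313 on one probe set and 132 and 96 on the other.

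Synaptic genes differed little between the RNAs, as most probe sets of their brightness did. Of 29 genes of synaptic vesicles and release, 24 were within 1.2-fold, and the median log2 ratio was -0.04. Over all kept probe sets, 75.2% from the 75th to the 95th percentile of brightness and 89.8% in the top 5% were within 1.2-fold. At the 75th percentile or over lay 22 of the 29 genes. The largest difference was Ap2a2, an adaptor subunit of endocytosis, with 559 and 967, but its other probe sets read 621 and 699, and 175 and 151. Of the glutamate receptors, Gria1 read 1948 and 1777 and Gria2 1993 and 1986, and the 12 genes of that list had a median of 0.01. The 10 genes of GABA and glycine receptors had a median of -0.04. Plasticity and calcium genes had 28 of 34 within 1.2-fold. Homer2, a scaffold of metabotropic glutamate receptors, was the lowest glutamate gene, at 133 and 187.

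Immediate early genes, which mark recent neuronal firing, did not move as a group, with 4 of 13 above 0 and a median of -0.07. Egr1 read 372 with fungal oil and 432 with fish oil, and Jun 550 and 462. Past 2-fold was 1 gene, Btg2, with 40 and 86. Among neuropeptides, Cck, the gene of cholecystokinin, was lower on both of its probe sets, with 1295 and 1700 on one and 992 and 1417 on the other. Oprk1, the kappa opioid receptor, read 44 and 114, and Kcnc1, a potassium channel of fast-spiking interneurons, 85 and 28. These dim probe sets lie where the ratio is most variable.

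Myelin, respiratory chain, ribosome and proteasome genes were near 0. Oligodendrocyte genes had a median log2 ratio of -0.03, with Mobp at 937 and 1088 (417 and 349 on its other probe set) and Mag at 312 and 328. Of 54 respiratory chain genes 50 were within 1.2-fold, and of 37 cytosolic ribosomal proteins 32 were. The medians were -0.06 and -0.01. At the 75th percentile of brightness or over lay 47 of the 54 and 35 of the 37. Over all kept probe sets, 75.2% from the 75th to the 95th percentile and 89.8% in the top 5% were within 1.2-fold. Rpl27a was lower at 2111 and 3041 (log2 ratio -0.53, with -0.13 on its other probe set). The 29 proteasome genes had a median of -0.05, with 1 past 1.5-fold, the immunoproteasome subunit Psmb9, at 145 and 79. Of 41 heat shock and chaperone genes 31 were within 1.2-fold, with Cct7 (781 and 1134) and Cct5 (465 and 598), subunits of the same cytosolic chaperonin, among the 3 lowest.

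**Figure D4:**
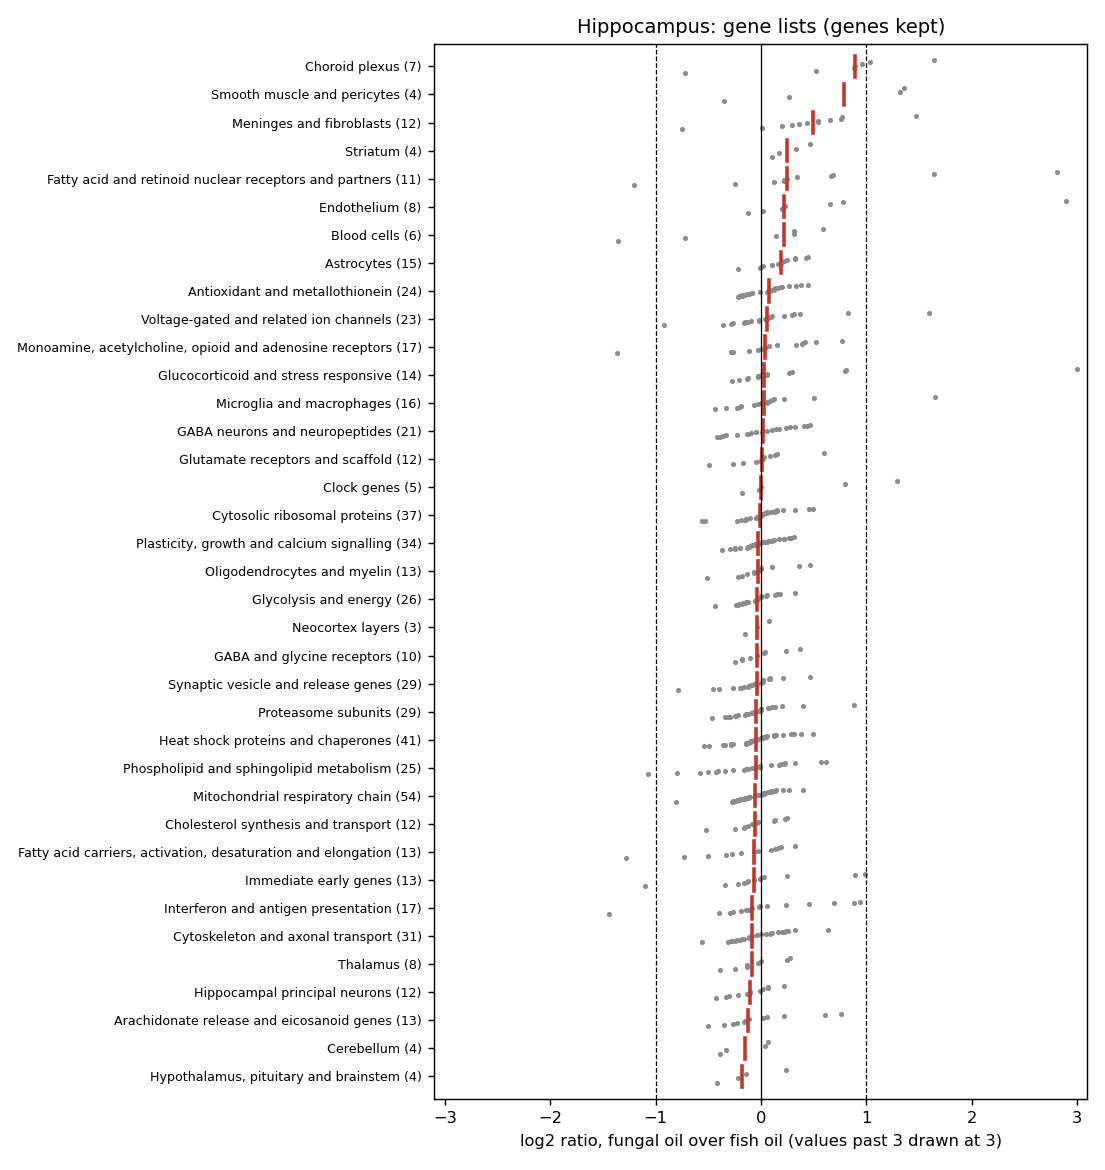
Log2 ratio of fungal over fish oil in hippocampus (horizontal axis) for the kept genes of 37 lists (rows, with the number of kept genes in brackets), 1 grey point per gene, a red bar at the list's median and dashed lines at 2-fold. The medians of 28 lists lie within 0.15 of 0, and those of the choroid plexus (0.89), smooth muscle (0.79) and meninges and fibroblast lists (0.49) stand farthest out. The lists were chosen with earlier results of these data known.

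The eicosanoid list contains the enzymes and receptors closest to the arachidonate supplied by the fungal oil. Of 34 members on the arrays 13 were kept, 5 above 0 and 8 below, with a median log2 ratio of -0.12. Besides Ptgds, described with the meningeal genes, the member that stood out was Pla2g7, the lipoprotein-associated phospholipase that degrades platelet-activating factor, with 931 with fungal oil, 612 with fish oil, 865 with both oils and 746 with the control diet. In liver it read higher with fungal oil too, with a log2 ratio of 0.63. Mgll and Faah, which hydrolyse endocannabinoids, read 723 and 784, and 539 and 532. Lta4h, of the leukotriene pathway, read 177 and 196, and Ptges2, a prostaglandin E synthase, 126 and 151. The inducible cyclooxygenase Ptgs2 (34 and 27) and the cytosolic phospholipase Pla2g4a (10 and 3) were too dim to be kept.

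Genes of fatty acid carriers, activation, desaturation and elongation had 8 of 13 kept members below 0 and a median log2 ratio of -0.07. Elovl2, which elongates polyunsaturated fatty acids on the route to docosahexaenoate, read 40 with fungal oil, 97 with fish oil and 82 with the control diet, a log2 ratio of -1.28 and the list's only one past 2-fold. The fungal-oil array was the low one. Elovl6, the elongase of saturated fatty acids, read 106, 176 and 159 in the same order, and Scd1, a desaturase that makes oleate, 404, 572 and 478. The other elongases differed the opposite way, Elovl1 with 106 and 85 for fungal and fish oil and Elovl3, too dim to be kept, with 48 and 17. Scd2, the main brain desaturase of this family, read 1721 and 1758, and the fatty acid carriers Fabp3, Fabp5 and Fabp7 read 468 and 427, 783 and 823, and 433 and 379. Cholesterol genes had 11 of 12 within 1.2-fold, with Hmgcs1 at 738 and 875. Over all kept probe sets 64.8% were within 1.2-fold, and 75.2% of those from the 75th to the 95th percentile of brightness.

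Phospholipid genes had 17 of 25 below 0 and a median log2 ratio of -0.05. Cds2, the CDP-diacylglycerol synthase used to make phosphatidylinositol, read 199 with fungal oil, 418 with fish oil, 248 with both oils and 223 with the control diet. Here the fish-oil array was the high one. In liver Cds2 read 91 with fungal oil, -2 with fish oil, and 97 and 103 in the controls, so its log2 ratio there was of opposite sign. Pitpnb, a phosphatidylinositol transfer protein, read 142 and 247 in hippocampus, and was lower in liver as well (log2 ratio -1.72). The nuclear receptor list had a median of 0.25, with Ttr as a shared member. Rxra, the retinoid X receptor alpha that pairs with many other nuclear receptors, was read by 1 probe set. It had 104 with fungal oil, -58 with fish oil, 193 with both oils and 171 with the control diet. The difference between the oils was 7-fold against the floor. Ppara, the fatty acid sensor, read 20 and 46, both far under the 139 of both oils and the 114 of the control diet.

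Of the 5 kept clock genes, 2 were higher with fungal oil and the other 3 lay near 0. Dbp, a transcription factor whose RNA follows a strong daily rhythm, read 206 with fungal oil, 84 with fish oil and 111 with the control diet. Per1, a repressor of the clock, read 217, 125 and 123. Clock read 108 and 122, and Bhlhe40 249 and 249. The 4 clock genes that were not kept read higher with fungal oil too, as did 57.4% of all 2612 genes that were not kept. They were dim, Cry1 with 41 and 14, Npas2 with 31 and 2, Nfil3 with 24 and 19 and Nr1d2 with 26 and 24. With them the list's median was 0.34 in place of 0. In liver Dbp read 581 with fungal oil, 174 with fish oil, and 176 and 162 in the control RNAs, and Per1 had a log2 ratio of 0.26. The time at which each group was killed within the morning is not given in the labels used here, and it cannot be told apart from diet. The promoters of Dbp and Per1 are shown because these are the clock genes that differed. They are RefSeq windows of GRCm38.p6, from 250 bases before to 50 bases after the start of the transcript, and capitals mark the E-box CACGTG, the letters bound by CLOCK and its partner BMAL1. It was searched on both strands and is present in 7.15% of 32851 such windows. Dbp, plus strand, chr7:45704997-45705296, has no match. Per1, plus strand, chr11:69098699-69098998, has 1 match, which begins 166 bases before the start, and a second Per1 window has none.
Dbp: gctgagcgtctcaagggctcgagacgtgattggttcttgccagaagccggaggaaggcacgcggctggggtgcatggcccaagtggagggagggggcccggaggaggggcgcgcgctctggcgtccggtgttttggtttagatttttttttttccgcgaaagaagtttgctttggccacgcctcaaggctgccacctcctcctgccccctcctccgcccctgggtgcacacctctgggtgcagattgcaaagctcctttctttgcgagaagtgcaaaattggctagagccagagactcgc
Per1: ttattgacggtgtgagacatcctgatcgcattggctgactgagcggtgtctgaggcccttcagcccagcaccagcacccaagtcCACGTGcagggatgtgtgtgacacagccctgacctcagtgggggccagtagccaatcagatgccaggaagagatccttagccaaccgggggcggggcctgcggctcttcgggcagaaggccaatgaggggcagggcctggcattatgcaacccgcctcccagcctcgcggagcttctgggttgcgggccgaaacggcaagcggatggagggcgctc
A match, or its absence in this window, is a description of the letters alone.

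The largest differences among bright genes are given next, by a rule that took 12 each way from the 75th percentile of brightness upwards. Besides Ttr, Acta2 and Igf2, the higher genes were led by Timp2, an inhibitor of matrix metalloproteinases, with 383 with fungal oil, 90 with fish oil, 371 with both oils and 283 with the control diet. Notch1, a receptor of neural stem cells and endothelium, read 329, 88, 251 and 265 in that order. Dazap1, an RNA-binding protein, read 341, 155, 233 and 384. In these 3 the fish-oil array was the low one. Gpr162, an orphan receptor, followed on chip A with 512 with fungal oil, 260 with fish oil and 496 with the control diet. Rcan1, an inhibitor of calcineurin, read 258 and 138, Epha8, an ephrin receptor, 243 and 130, Dct, a melanin enzyme, 461 and 253, Dtx1, a regulator of Notch signalling, 223 and 124, and Itih1, whose product binds hyaluronan, 308 and 172. All 12 higher genes have a single kept probe set.

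Of the 12 lower genes, Cbr2 and Zfp787 were the most extreme. Cbr2, a carbonyl reductase, read 137 with fungal oil, 307 with fish oil, 408 with both oils and 339 with the control diet, so here the fungal-oil array was the low one. Zfp787, a zinc finger protein, read 162, 360, 192 and 306. Id1, an inhibitor of basic helix-loop-helix factors, read 169, 344, 238 and 148, where the fish-oil array was the high one. Lgals3, the gene of galectin-3, a lectin of activated macrophages, read 139 and 281, and Csf3, a colony-stimulating factor, 133 and 281. Slc4a3, an anion exchanger, read 200 and 390, Mypop, a Myb-related repressor, 307 and 591, Slc25a10, a mitochondrial dicarboxylate carrier, 129 and 242, and Hadha, of mitochondrial fatty acid oxidation, 220 and 411. Ssr4, of the endoplasmic reticulum translocon, and Cyct, the testis cytochrome c, at 141 and 297 and at 216 and 442, were contradicted by their other probe sets (log2 ratios of 0.56 and 1.12).

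Among the brightest 5% of each chip no gene was past 2-fold. Ptgds and Hba-a1 were the most extreme above 0, followed by Sparcl1, Uqcr10, a subunit of respiratory complex III (996 and 754), and Itm2c, a membrane protein of neurons (4869 and 3853). Below 0 they were Ap2a2, Snrnp27, a splicing factor (918 and 1333), Rpl27a, Cck and Septin4, a septin of glia and neurons (984 and 1257).

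Of 519 genes with several kept probe sets, those whose kept probe sets all differed by at least 1.5-fold the same way numbered 4. Igfbp1, another binding protein of insulin-like growth factors, read 89 and 190 with fungal and fish oil on one probe set and 67 and 198 on the other. Ahcy, the hydrolase of S-adenosylhomocysteine, read 76 and 149 on chip B and 53 and 108 on chip A. Ctsa, a lysosomal carboxypeptidase, read 165 and 87 on chip B and 144 and 92 on chip A. Mdk, the growth factor midkine, read 155 and 101 on chip B and 124 and 39 on chip A. Ahcy, Ctsa and Mdk were read on both chips, and the rule that named them required the same direction, so that agreement is no separate support. At the far end stood Cdkn1a, the cell cycle inhibitor p21. One probe set read 430 with fungal oil, -6 with fish oil, 46 with both oils and -1 with the control diet. The other probe set read 83 and 84 with fungal and fish oil. The first passed the brightness filter only through the fungal-oil array, and its 28.9-fold difference was taken against the floor of 14.9.

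Liver of the same diets was set beside the hippocampus. Of 2820 genes kept in both tissues, the log2 ratios of fungal over fish oil correlated across genes with r = 0.05 and a Spearman rho of 0.05, where genes are not independent replicates. Of these 2820 genes, 88 differed by at least 2-fold in hippocampus and 224 in liver. Past 2-fold in both tissues were 19, 21.6% of the 88 and 8.5% of the 224, with 12 the same way and 7 opposite. The share to set beside the 21.6% is the 224 of 2820 genes in liver, and beside the 8.5% the 88 of 2820 in hippocampus. Over all kept probe sets of each tissue, a different set that includes unnamed ones, 4.73% were past 2-fold in hippocampus and 12.6% in liver. Besides Dbp, the genes higher in both were led by Timp2 (151 and 11 in liver), Mafg, a small Maf transcription factor (78 and -15 in hippocampus, 52 and 11 in liver), Col6a1 (111 and 31 in liver) and Rgs5 (81 and 37 in liver). Lower in both were Trgv4, a T cell receptor segment (49 and 129 in hippocampus, 49 and 118 in liver), Ephb3, an ephrin receptor (63 and 139, and 65 and 175), Btg2 (62 and 171 in liver), Lgals3 (49 and 285 in liver) and Dusp11, an RNA phosphatase (50 and 100, and 26 and 73). Most of these are dim. The liver controls lay far apart themselves for Timp2 (96 and 17), Ephb3 (139 and 34) and Col6a1 (24 and 65). Those of Dbp and of the other genes named here lay closer together.

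The lists that led in hippocampus did not lead in liver. Choroid plexus genes had a median log2 ratio of -0.35 in liver, over 5 kept genes, meninges and fibroblast genes 0.04, over 10, and smooth muscle genes 0.06, over 4. Ttr, which hepatocytes secrete, read 1266 and 1160 in liver, and Acta2 267 and 274. In the liver control pair the same 3 lists had medians of -0.01, 0.05 and -0.06. Other lists differed more in that pair, such as GABA neurons and neuropeptides (0.53, 13 genes) and endothelium (0.34, 6 genes). A pair of liver RNAs cannot show how far choroid plexus or meninges vary between hippocampal dissections, so it gives no yardstick for these lists.

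**Figure D5:**
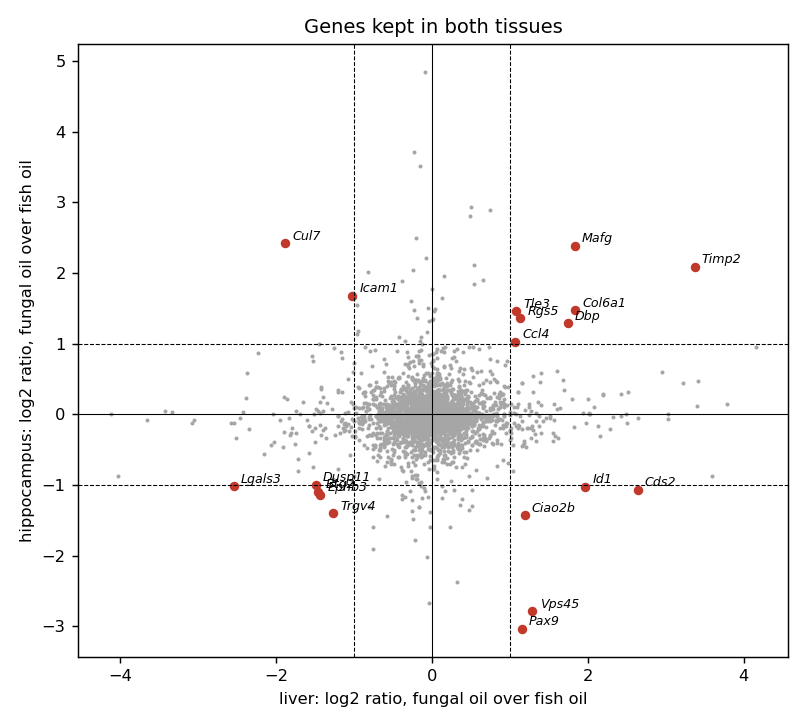
Log2 ratio of fungal over fish oil in hippocampus (vertical axis) against that in liver (horizontal axis) for 2820 genes kept in both tissues, 1 point per gene, with dashed lines at 2-fold. The 19 genes past 2-fold in both are red and named, 12 in the quadrants of equal sign and 7 in those of opposite sign, and the rest form a round cloud.

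Some responses often sought in such data were small or rested on single dim genes. Interferon and antigen presentation genes had 6 of 17 above 0 and a median log2 ratio of -0.08. Mx2, an interferon-induced GTPase, read 79 with fungal oil and 215 with fish oil, while Ifit3 read 67 and 35 and Tapbp, a chaperone of peptide loading, 451 and 279. Microglial genes had a median of 0.03, with C1qa at 217 and 199, Csf1r at 208 and 178, and 1 gene past 2-fold, the Fc receptor Fcgr3 (97 and 31). Antioxidant and metallothionein genes had a median of 0.08, with Mt1 at 903 and 1045 and Mt2 at 1064 and 882. Over all 37 lists, which hold 602 kept genes, 11 genes were at least 2-fold higher with fungal oil and 7 lower, or 1.83% and 1.16%, against 1.87% and 1.62% of all genes.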

How the data were processed

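Values deposited by the authors are intensities, 1 for each probe set on each array, as whole numbers with some below 0. Software and scaling: not given in the sources used here. Arrays had a common trimmed mean (2% at each end) and were used as deposited. Control probe sets were left out of ratios, and the chip B array of the fish-oil hippocampus has no values for them in the data used here. Signal over background and the number of arrays limit the precision.

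Probe sets were named from the platform annotation, which gives 1 symbol for 7542 of 13069 probe sets and several for 224. Updating symbols by gene identifier changed 0. Ratios are log2 of fungal over fish oil after the floor, computed in Python 3.11.15 with numpy and pandas and tested on simulated data. Lists of 37 pathways and cell types, and their members, were chosen with earlier results of these data known. Named genes are the 12 most extreme each way from the 75th percentile of brightness up, 5 each way from the 95th up, up to 6 each way with several probe sets all past 1.5-fold, up to 5 each way past 2-fold in both tissues, and list members, of which the 2 most extreme each way and those past 2-fold were eligible. Other list members, such as Ptgs2 and Gria2, are quoted as level examples. Alternatives were the normalization, centring, floor, filter, the choice of probe set and single chips, and, added after seeing the data, a 1.5-fold threshold and single chips for the counts. No test was run.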

Additional observations from a re-analysis of the deposited data

Results flagged for a closer look

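For 7 genes the log2 ratio of fungal over fish oil was past 2-fold in hippocampus and past 2-fold with the opposite sign in liver, with 1 RNA of each diet in each tissue, so the difference between tissues was not tested. Lower in hippocampus and higher in liver were Pax9 (log2 ratio -3.04 in hippocampus), Vps45 (-2.79), Ciao2b (-1.43), Cds2 (-1.07) and Id1 (-1.03). Higher in hippocampus and lower in liver were Cul7 (2.42) and Icam1 (1.68). Pax9, a transcription factor of embryonic development, read 20 with fungal oil, 165 with fish oil, 77 with both oils and 104 with the control diet in hippocampus. Icam1, the adhesion molecule of activated endothelium, read 224, 70, 178 and 219 in the same order. In liver Pax9 read 60 with fungal oil and 27 with fish oil, and 75 and 32 in the control RNAs, which thus lay as far apart. The liver controls also differed for Cul7 (89 and 162), Icam1 (183 and 118), Ciao2b (72 and 44) and Id1 (92 and 56). They lay close together for Vps45 (89 and 89) and Cds2 (97 and 103). With groups of 1 array, no test for a sample apart from its group could be made.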

How the results depend on the processing

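Of 405 list medians recomputed under the alternatives, 396 moved by less than 0.28, the SD of list medians between the liver control RNAs. That SD takes in a median of 1.47 from 4 genes of the hypothalamus, pituitary and brainstem list. It is wider than the medians of the 28 lists within 0.15 of 0, so for these it is a loose measure of stability. The sign changed in 20 of the 405, 18 of them in lists whose median lay within 0.2 of 0, whose direction is therefore not settled. Of 451 values of named genes, 442 kept their direction and moved by less than the SD of that pair on their chip. Those SDs, 0.50 on chip A and 0.81 on chip B, are wide beside many of the ratios. Floor and filter settings leave the ratio of a probe set above the floor as it was, so much of this agreement was fixed beforehand. Mafg, with 1 side at the floor, went from 2.39 to 3.39 with the floor at 0.5 times and to 1.07 at 2.5 times. The 178 higher and 131 lower probe sets became 505 and 379 with no filter, 20 and 13 with the filter at the 75th percentile, 20 and 41 on chip A alone, and 411 and 381 at 1.5-fold; the other settings changed neither count by more than 1.5 times. The smooth muscle median of 0.79 was 0 with no filter, 1.32 (1 gene) with the filter at the 75th percentile, 0.45 as a mean over probe sets and 0.48 on chip B alone. The choroid plexus median of 0.89 was -0.10 on chip B alone, which holds 2 of its genes. The blood cell median of 0.22 was -1.04 on chip A alone, over 2 genes. The endothelial median of 0.22 was 0.72 on chip B alone, and the clock median of 0 was 0.34 with no filter and 0.39 on chip A alone. Values turned sign for Cyct as a mean over probe sets (0.04), Ssr4 on chip A alone (0.56) and Ap2a2 on chip B alone (0.21). Settings that change which probe sets enter, or how many, differ from the others by construction; beyond that the cause was not tested. No paired analysis was possible because each diet has 1 hippocampus RNA, and for the same reason no array could be left out. Centring moved no list median by more than the chip medians of -0.02 and -0.05.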
